A study of Mus musculus with 8 samples.

Results

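The 10 genes described here encode cytokines of the IL-10 family (Il10, Il19 and Il24), receptor chains for IL-10 and IL-22 (Il10ra, Il10rb and Il22ra1), the soluble IL-22 binding protein (Il22ra2), the secreted lectins Reg3g and Reg3b, and the glycosyltransferase Extl3. They were chosen by name, with earlier results of these data known, and their 14 probes were found through the RefSeq accessions in the scanner output. They are 10 of 22911 named genes and of 45616 genes or accessions on the array.

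The study asked how feed carrying CpG oligodeoxynucleotide particles alters allergic airway disease, and measured lung RNA of 8 female BALB/c mice with 1 single-color array per mouse. All mice were bought at 4 weeks of age, housed for 2 weeks and then fed for 70 days. NT mice (n = 2) ate standard feed and never met ovalbumin (OVA). Ctrl-F mice (n = 2) ate standard feed, Cap-F mice (n = 2) ate feed with control particles, and ODNcap-F mice (n = 2) ate feed with particles that held the oligodeoxynucleotide. These 3 groups were injected with OVA on Days 42, 49 and 56 and inhaled it from Day 63 to Day 69, and lungs were taken 24 h later. NT therefore differed from Ctrl-F in the whole OVA treatment, with its aluminum adjuvant, injections and inhalation, and from Cap-F and ODNcap-F in this treatment and feed together. The RNA came from whole lung, so fewer cells of a type and less RNA per cell cannot be told apart. NT and Ctrl-F lay in row 1 of the slide and Cap-F and ODNcap-F in row 2, so row and group cannot be told apart across these pairs.

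IL-10 restrains inflammation by binding Il10ra on leukocytes together with the shared chain Il10rb. IL-22 binds Il22ra1 on epithelial cells with the same Il10rb chain, IL-24 can use Il22ra1 with Il20rb, and Il22ra2 captures IL-22 before it reaches a cell. These receptors act through JAK1, TYK2 and STAT3, and in epithelia of the gut and airway STAT3 induces antimicrobial proteins such as the Reg3 lectins, for which EXTL3, an enzyme of heparan sulfate synthesis, has been described as a receptor.

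Levels are log2 intensities after quantile normalization over the 8 arrays. A probe was tested when both mice of some group gave a signal well above background, and a gene was called at an adjusted p under 0.05 for its brightest probe, in either direction. Of the 10 genes, 8 were tested. Reg3b and Il19 were not, since none of their probes was well above background on any array. Il10, Il24 and Il22ra2 entered the test only through the groups in which they were high, so the next counts of calls against NT leave them out and cover Reg3g, Extl3, Il22ra1, Il10ra and Il10rb, which every lung measured. In the 3 OVA groups against NT 5 of these 5 were called, where 65.8% of all 37116 tested probes were called. Each of the next 3 comparisons shares the 2 NT mice with the others. Ctrl-F against NT had 2 of the 5 called (61.0% of all probes), Cap-F 4 (56%) and ODNcap-F 4 (59.0%). With a fold change over 2 required as well, 1 was called in the 3 OVA groups against NT (Reg3g, 20.6% of all probes), 0 for Ctrl-F alone (22.1%), 1 for Cap-F (Il10ra, 19.1%) and 1 for ODNcap-F (Reg3g, 20.0%). The local-pooled-error test, which borrows the spread from probes of like intensity, called Extl3, Il10ra and Reg3g in each of the 3 groups against NT, and Il22ra1 and Il10rb in 0 of them, where it called 51.2%, 44.9% and 46.1% of all probes. The median of all tested probes was -0.11 in the 3 OVA groups against NT. The plot of every gene by mouse shows 3 kinds of pattern among the 8 tested genes. Some crossed the background floor with OVA, some shifted within a narrow band, and Reg3g spread widely. Reg3b and Il19 stayed in the background of every lung.

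**Figure D1:**
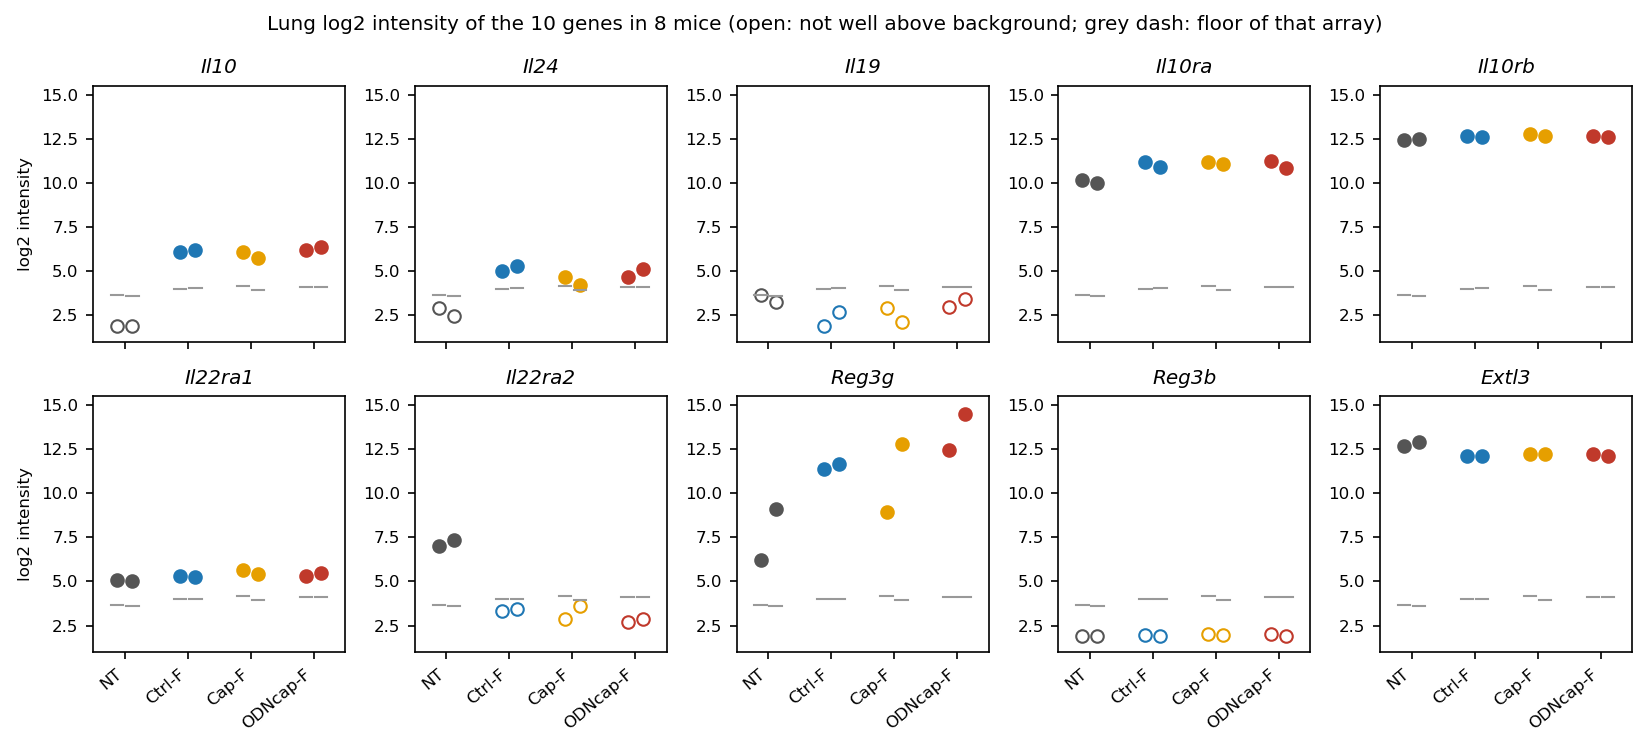
Log2 intensity (vertical axis) of the brightest probe of each gene in the 2 mice of each group (horizontal axis). Open circles were not well above background, and the grey dashes give the lowest value well above background on each array, 3.61 to 4.18. Il10 and Il24 rise above the floor in all 6 OVA mice, Il22ra2 drops below it, and Reg3g runs from 6.20 to 14.47.

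Among the ligands, Il10, the gene of the regulatory cytokine IL-10, stood at 1.92 and 1.89 in the 2 NT lungs, not well above background. It stood at 6.11 and 6.20 in Ctrl-F and at 6.07 and 5.75 in Cap-F, while ODNcap-F gave 6.23 and 6.37. Every OVA lung was above every NT lung, and the 6 OVA values lay within a narrow range. Because NT was not measured above background, the change is a bound: the mean of the bright group was set against the mean, over the dim arrays, of the higher of the probe's own value and the lowest value well above background on that array. Il10 was at least 5.64-fold higher in the 3 OVA groups than in NT (adjusted p = 2.45e-06), and at least 5.78-fold, 4.87-fold and 6.38-fold higher when Ctrl-F, Cap-F or ODNcap-F was compared alone (adjusted p = 7.16e-06, 1.04e-05 and 7.58e-06). For Il10, Il24 and Il22ra2 alike, these p come from the fit of measured values, which lie in the background on the dim side.

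Il24 encodes a cytokine that acts on epithelia through Il20rb and a partner chain. Its brighter probe stood at 2.91 and 2.45 in NT, at 5.04 and 5.31 in Ctrl-F, 4.66 and 4.23 in Cap-F, and 4.69 and 5.14 in ODNcap-F. It was well above background in 6 of 6 OVA lungs and in 0 of 2 NT lungs, and the Cap-F lungs were the lowest of the OVA lungs. Il24 was at least 2.32-fold higher in the 3 OVA groups (adjusted p = 0.000232), with bounds of 2.92-fold in Ctrl-F, 1.76-fold in Cap-F and 2.44-fold in ODNcap-F (adjusted p = 0.000389, 0.00168 and 0.000639). The other Il24 probe was not well above background on any array.

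Il19, which lies between Il20 and Il10 in a row of genes that runs Il24, Il20, Il19 and Il10, was not well above background on any array with either of its 2 probes. Its brighter probe ran from 1.91 to 3.67 and the other from 1.80 to 4.15. Il20, its other neighbor, was not well above background on any array either. Il22, which encodes the ligand of Il22ra1, was well above background on 2 of 8 arrays, with log2 values between 2.36 and 4.24, and was not tested. In this row, then, the outer genes Il24 and Il10 rose with OVA while the inner genes stayed in the background of every lung.

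The receptor chains were all measured on 8 of 8 arrays. Il10ra, the ligand-binding chain for IL-10, stood at 10.18 and 9.98 in NT, at 11.22 and 10.90 in Ctrl-F, 11.17 and 11.06 in Cap-F, and 11.25 and 10.83 in ODNcap-F. All 6 OVA lungs lay above both NT lungs. The difference of the 3 OVA groups from NT was 0.998 (SE 0.14, adjusted p = 0.00142), and the groups taken singly differed from NT by 0.98, 1.04 and 0.97 (adjusted p = 0.00406, 0.00366 and 0.00455). A second Il10ra probe gave 0.94 for the 3 OVA groups (adjusted p = 0.000829), with 0 overlap between its OVA values, 7.75 to 8.17, and its NT values, 6.996 and 7.068.

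Il10rb, the chain shared by the receptors for IL-10 and IL-22, stood at 12.47 and 12.51 in NT and between 12.62 and 12.78 in the 6 OVA lungs. The groups did not overlap, but the step was small. It rose by 0.18 in the 3 OVA groups (SE 0.05, adjusted p = 0.0245), and by 0.25 in Cap-F (adjusted p = 0.0213). In Ctrl-F it differed from NT by 0.16 (95% interval -0.003 to 0.323, adjusted p = 0.0798) and in ODNcap-F by 0.15 (interval -0.02 to 0.31, adjusted p = 0.102). The call of Il10rb in the 3 OVA groups was lost without NT mouse 1 (0.16), NT mouse 2 (0.21), Ctrl-F mouse 1 (0.18) or Cap-F mouse 1 (0.17), and that in Cap-F without NT mouse 1 (0.23), NT mouse 2 (0.27) or Cap-F mouse 1 (0.21). The Il10rb call in Cap-F was also lost with the local-pooled-error test (adjusted p = 0.113) and a limma fit of the compared groups only (0.0536), while scaling to the 75th percentile or an intensity trend added calls in Ctrl-F (0.0171 and 0.0282) and ODNcap-F (0.0344 and 0.0403), as did testing all probes in Ctrl-F (0.0473).

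Il22ra1, the chain that gives epithelial cells their response to IL-22, was dim. Its brighter probe stood at 5.079 and 5.002 in NT, at 5.33 and 5.24 in Ctrl-F, 5.64 and 5.41 in Cap-F, and 5.29 and 5.46 in ODNcap-F. The OVA lungs all lay above the NT lungs, and the Cap-F lung at 5.64 was the highest of the 8. Il22ra1 rose by 0.35 in the 3 OVA groups (SE 0.09, adjusted p = 0.0134), by 0.49 in Cap-F (adjusted p = 0.0107) and by 0.33 in ODNcap-F (adjusted p = 0.0386). In Ctrl-F the difference was 0.24 (interval -0.02 to 0.51, adjusted p = 0.0959). Its second probe was not well above background on any array. Scaling to the 75th percentile or normexp background correction ended the call of Il22ra1 in the 3 OVA groups (0.24, adjusted p = 0.055, and 0.13, adjusted p = 0.0526), as did leaving out NT mouse 1 (0.39) or NT mouse 2 (0.32), with adjusted p between 0.00904 and 0.0915 over all alternatives. The call in Cap-F was lost without NT mouse 2 (0.45) or Cap-F mouse 1 (0.37), and that in ODNcap-F without NT mouse 1 (0.37), NT mouse 2 (0.30), ODNcap-F mouse 2 (0.25) or either Ctrl-F mouse (0.33). With the local-pooled-error test Il22ra1 was called in neither (adjusted p = 0.234 and 0.44), and the limma call in ODNcap-F was also lost with 75th percentile scaling (0.137), normexp (0.314), the deposited values (0.0558), all probes tested (0.0603), the replicate block (0.0528), an intensity trend (0.121) and a fit of the compared groups only (0.0519).

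Il22ra2, whose product binds IL-22 in solution and keeps it from Il22ra1, moved the other way. It stood at 7.01 and 7.36 in NT. In the OVA lungs it stood at 3.30 and 3.43 in Ctrl-F, 2.89 and 3.63 in Cap-F, and 2.73 and 2.86 in ODNcap-F, none of them well above background. Both NT lungs measured it and 0 of 6 OVA lungs did. Il22ra2 was at least 8.72-fold lower in the 3 OVA groups than in NT (adjusted p = 2.94e-05), and at least 9.02-fold, 8.78-fold and 8.38-fold lower for Ctrl-F, Cap-F and ODNcap-F (adjusted p = 0.0001, 0.000109 and 7.39e-05). On its chromosome the gene lies between Ifngr1 and Il20ra, the latter not well above background on any array.

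**Figure D2:**
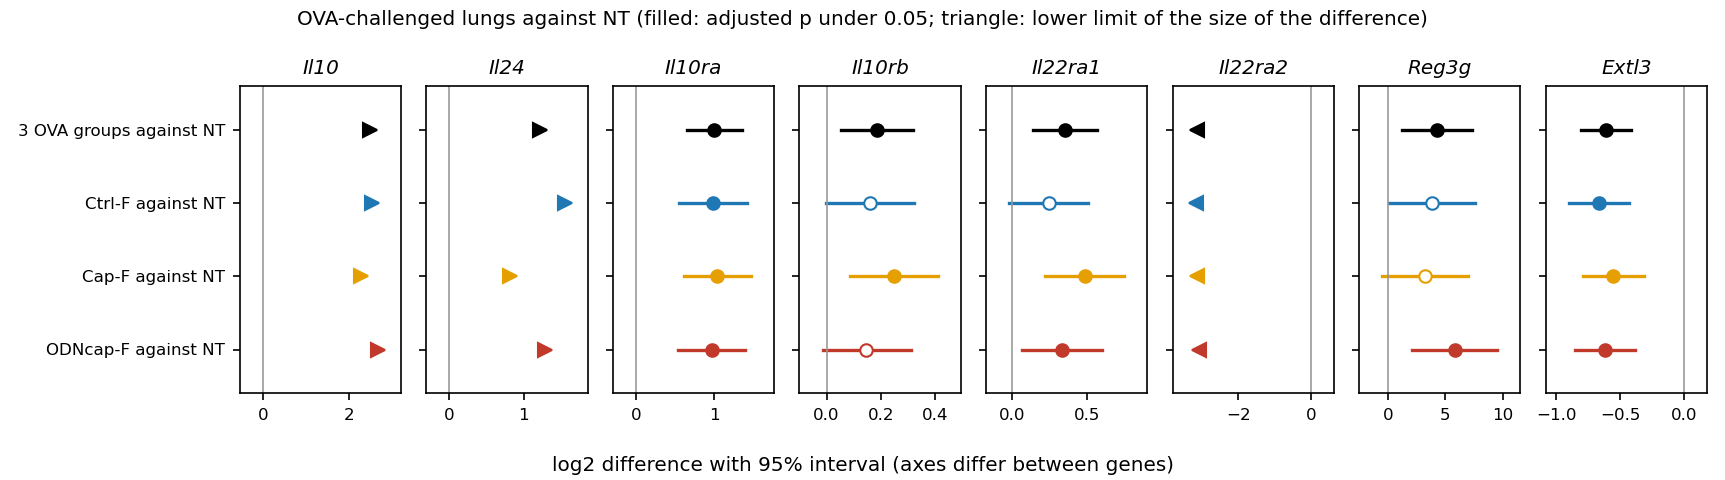
Log2 difference from NT (horizontal axes, which differ between genes) for the 3 OVA groups together and for each of them, with 95% intervals. Filled symbols were called at an adjusted p under 0.05, and triangles mark bounds where 1 side was not well above background. Il22ra2 and Extl3 lie to the left of 0 in every comparison and the other 6 genes to the right, with intervals of Reg3g that span several log2 units.

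The targets Reg3g and Reg3b lie at the 2 ends of 1 gene cluster on mouse chromosome 6, which runs Reg3b, Reg3d, Reg3a, Reg2, Reg1 and Reg3g. Promoters from RefSeq were held for 4 of the 10 genes, Reg3g, Reg3b, Il22ra1 and Il19. Those of Reg3g and Reg3b are shown because the array found the one gene bright and the other dark in the same lungs. Each run is the 250 bases before the gene start in GRCm38.p6, 5′ to 3′ on the gene's own strand, with Reg3g on the minus strand at chr6:78468875-78469124 and Reg3b on the plus strand at chr6:78370635-78370884. Capitals mark TTCNNNGAA, the core that STAT factors bind, which is its own reverse complement so that both strands are searched at once.
Reg3g: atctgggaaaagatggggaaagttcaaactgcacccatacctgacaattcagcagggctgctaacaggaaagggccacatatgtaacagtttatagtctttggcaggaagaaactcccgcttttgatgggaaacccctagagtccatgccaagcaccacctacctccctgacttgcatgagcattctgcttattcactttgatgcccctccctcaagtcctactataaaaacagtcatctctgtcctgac
Reg3b: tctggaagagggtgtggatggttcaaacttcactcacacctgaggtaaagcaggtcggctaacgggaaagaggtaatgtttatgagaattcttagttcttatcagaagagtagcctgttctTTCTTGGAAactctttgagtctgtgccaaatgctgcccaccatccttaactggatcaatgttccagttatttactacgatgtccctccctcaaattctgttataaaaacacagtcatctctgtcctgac
The motif occurs in 2306 of 32851 promoters of this length (7.02%). Reg3b holds 1 match, which starts 129 bases before the gene start, and Reg3g holds 0 in this window. Among the others Il19 holds 1 match and Il22ra1 holds 0. The longest stretch that the Reg3g and Reg3b promoters share is 20 bases and ends at the start of both genes.

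Reg3g, a C-type lectin that kills gram-positive bacteria, stood at 6.20 and 9.12 in the NT lungs, 11.38 and 11.63 in Ctrl-F, 8.94 and 12.82 in Cap-F, and 12.46 and 14.47 in ODNcap-F. The first Cap-F lung lay below the second NT lung, so OVA and NT values overlapped, whereas the Ctrl-F and ODNcap-F lungs lay above both NT lungs. Reg3g rose by 4.29 in the 3 OVA groups (SE 1.25, interval 1.24 to 7.34, adjusted p = 0.0236) and by 5.80 in ODNcap-F against NT (interval 2.07 to 9.54, adjusted p = 0.0186). In Ctrl-F it differed from NT by 3.85 (interval 0.11 to 7.58, adjusted p = 0.0702) and in Cap-F by 3.22 (interval -0.52 to 6.96, adjusted p = 0.12). A call in 1 OVA group and none in another does not show that the groups differ, and between the OVA groups limma did not call Reg3g.

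The spread of Reg3g between mice of a group was among the widest on the array. The 2 NT lungs differed 7.60-fold, and 6 of the 37116 probes (0.0162%) had a larger gap in NT. The Cap-F lungs differed 14.6-fold, with 6 probes above that, and the ODNcap-F lungs 4.02-fold, with 54 probes (0.145%) above. In Ctrl-F the gap was 1.19-fold and 8781 probes (23.7%) exceeded it. The median gap of all probes was 0.11 log2 units in NT and Cap-F, 0.12 in Ctrl-F and 0.14 in ODNcap-F.

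The Reg3g calls changed with single lungs. Without NT mouse 1 the 3 OVA groups differed from NT by 2.83 (adjusted p = 0.173) and ODNcap-F by 4.34 (0.0931), and without ODNcap-F mouse 2 the latter was 4.80 (0.0915). Without NT mouse 2 the 2 values were 5.75 and 7.27. Leaving out Cap-F mouse 1 gave a Reg3g difference of 5.16 for Cap-F against NT, which was then called, and 1.28 without Cap-F mouse 2. Ctrl-F against NT was called without either Cap-F mouse, at the same 3.85, and stood at 2.38 and 5.31 without NT mouse 1 or NT mouse 2. That Reg3g difference was also called with normexp (3.28, adjusted p = 0.0325), the replicate block (0.0145), an intensity trend (0.0288) and a fit of the compared groups only (0.0379). The replicate block called Reg3g in Cap-F against NT too (0.0278), and by local-pooled-error it was called in Ctrl-F (adjusted p = 3.14e-105) and Cap-F (7.84e-78). These last p rest on the spread of probes of like intensity and do not measure the gaps between mice for Reg3g. With all probes tested the call in the 3 OVA groups was lost (adjusted p = 0.0576, within 0.00447 to 0.173 over the alternatives).

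The summed signal of airway epithelial markers moved with these gaps in 3 of the 4 groups. Of the 12 listed genes of that kind, all were measured, and the probe of Scgb1a1 was the brightest. Their summed intensity was 478100 and 527200 in NT mice 1 and 2, 305500 and 289200 in Ctrl-F, 305400 and 365400 in Cap-F, and 323900 and 364200 in ODNcap-F. In NT, Cap-F and ODNcap-F the lung with more Reg3g had the higher sum, and in Ctrl-F the lung with slightly more Reg3g had the lower one. Across groups the order of the sums was different, since the sums of all OVA lungs lay below those of NT while Reg3g rose. The mean log2 of the same 12 genes did not part OVA from NT in this way. By that measure ODNcap-F mouse 2 (12.931) and Cap-F mouse 2 (12.743) exceeded NT mouse 1 (12.705). The remaining OVA lungs were lower than NT mouse 1, and NT mouse 2 (12.945) was the highest of all. In NT the higher sum came mostly from Scgb3a1 and Scgb3a2, while Krt8, Krt19 and Spdef were lower in the lung with more Reg3g. Scgb1a1, like the alveolar gene Sftpc, ranked near the top of every array, where quantile normalization sets the value, so it carries little difference between lungs. Scgb3a1, a secretoglobin of secretory airway cells, stood at 11.80 and 14.54 in NT, at 14.97 and 14.68 in Ctrl-F, 14.97 and 16.01 in Cap-F, and 15.40 and 16.02 in ODNcap-F. Other genes of the list were lower in every OVA lung than in NT: the secretoglobin Scgb3a2 fell by 3.997 and the cytochrome Cyp2f2 fell by 1.73 (adjusted p = 2.45e-05 and 0.000104). The part of epithelial content in the Reg3g values was not tested.

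Over the 8 arrays, 2876 named genes measured in every lung, with an SD of at least 0.5, were compared with Reg3g, and the 5 most like it were Ptprn2 (Pearson r = 0.96), AU040972 (0.95), Cxcl17 (0.95), S100b (0.93) and Pla2g2c (0.93). This is a description over 8 lungs of 4 groups. Ptprn2, which encodes a protein of dense-core vesicles, stood at 5.72 and 6.06 in NT, at 7.18 and 6.93 in Ctrl-F, 6.41 and 8.03 in Cap-F, and 7.55 and 8.58 in ODNcap-F. Cxcl17, a chemokine of mucosal epithelia, stood at 9.57 and 9.75, 10.60 and 10.22, 10.07 and 10.76, and 10.77 and 11.09 in the same order. In both genes the second Cap-F lung and the second ODNcap-F lung were the higher of their pair, as for Reg3g. Both were picked for likeness to Reg3g over these same lungs, so this is no separate finding. In Ctrl-F both were higher in the first lung, while Reg3g was slightly higher in the second.

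**Figure D3:**
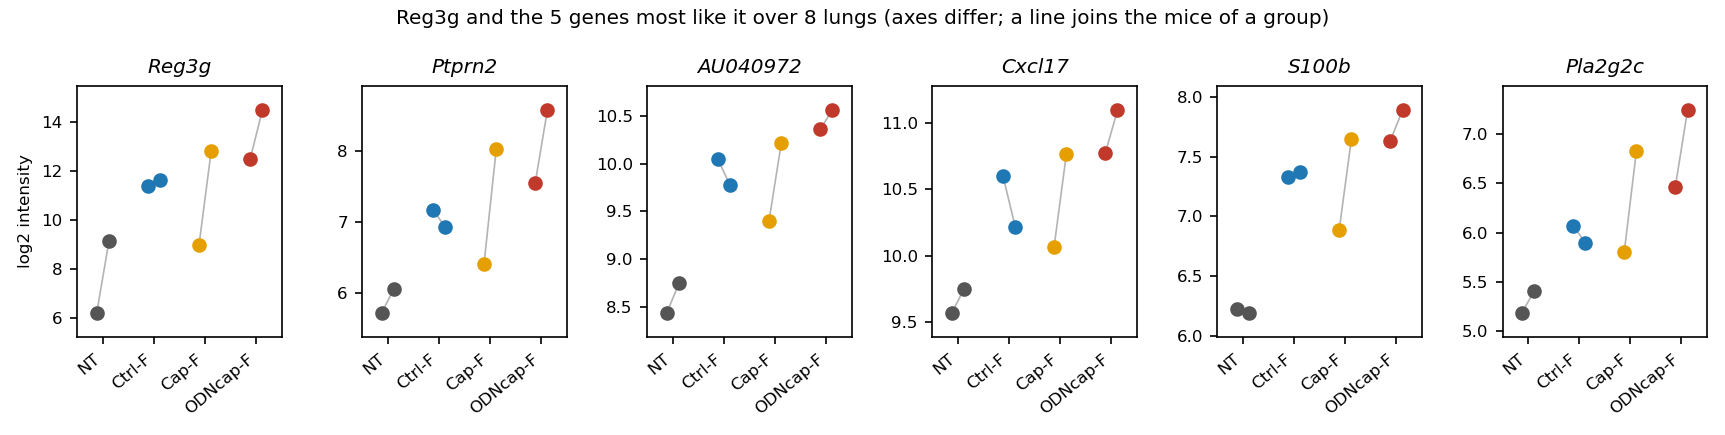
Log2 intensity (vertical axes, which differ) of Reg3g and of the 5 genes most like it in each lung, by group (horizontal axis), with a line between the 2 mice of a group. In each of the 6 genes the second Cap-F lung lies above the first, for Reg3g at 12.82 against 8.94.

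The genes most like Il22ra1, out of 2877, were Gm36913 (r = 0.95), Gpr45 (0.94), Lgals7 (0.93), Ifng (0.92) and Gkn3 (0.91). Ifng, the gene of the type 1 cytokine interferon gamma, stood at 6.47 and 6.18 in NT, at 7.37 and 7.32 in Ctrl-F, 7.84 and 7.59 in Cap-F, and 7.57 and 7.58 in ODNcap-F. Its highest lung, like that of Il22ra1, was the first of Cap-F, but Ifng was picked for likeness over these same lungs.

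Reg3b, the paralog of Reg3g, stayed between 1.92 and 2.03 on all 8 arrays and was not well above background on any, and of the other Reg genes Reg1, Reg2, Reg3a and Reg4 were not either. Reg3d was measured on 8 of 8 arrays, at 4.52 and 4.27 in NT and between 4.98 and 5.63 in the OVA lungs, and rose by 0.92 (adjusted p = 0.0059). Markers of organs where Reg genes are strongly expressed were measured in part: of 12 pancreatic acinar and islet markers 6 were tested, with Pnlip, Amy2a5, Prss2, Ins1, Ins2 and Gcg not well above background on any array, and of 9 intestinal epithelial markers 4 were tested, with Cdx2, Sis and Lct dark throughout. In the 3 OVA groups 1 of those 6 was called higher, 1 lower and 4 not, and 2 of those 4 were called higher and 2 lower, beside 28.0% of all probes higher and 37.8% lower. Of the intestinal genes called higher, Cdh17 entered the test only through the OVA lungs. Cpb1, the pancreatic gene called lower, entered it only through the NT lungs. In the intestinal list Fabp1, with the brightest probe, fell by 4.40 (adjusted p = 1.28e-05).

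Extl3, which starts heparan sulfate chains and has been described as the receptor of Reg3 proteins, fell with OVA. It stood at 12.66 and 12.90 in NT, at 12.09 and 12.13 in Ctrl-F, 12.24 and 12.20 in Cap-F, and 12.21 and 12.12 in ODNcap-F. Each OVA lung was below both NT lungs, and the OVA lungs lay close together. Extl3 decreased by 0.61 in the 3 OVA groups (SE 0.08, adjusted p = 0.00089), by 0.67 in Ctrl-F (adjusted p = 0.00173), by 0.55 in Cap-F (adjusted p = 0.00415) and by 0.62 in ODNcap-F (adjusted p = 0.00253). With each array left out in turn the value for the 3 OVA groups ranged from -0.73 to -0.49.

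Other enzymes of heparan sulfate synthesis were measured beside it. Of 15 listed genes 15 were tested in the 3 OVA groups against NT, and 2 were called higher, 6 lower and 7 not, where 28.0% of all probes were called higher and 37.8% lower, and the median was -0.12 beside -0.11 for all probes. Ndst1, an N-deacetylase and N-sulfotransferase, fell by 1.44 (adjusted p = 1.31e-05), and Hs2st1, a 2-O-sulfotransferase, fell by 0.89 (adjusted p = 6.31e-05). The 2 called higher were B4galt7, by 0.23, and Hs6st1, with the brightest probe of the list, by 0.14 (adjusted p = 0.0331 and 0.0429). Of the polymerase pair, Ext2 fell by 0.78 (adjusted p = 0.00128) and Ext1 differed by -0.12 (interval -0.27 to 0.04, adjusted p = 0.148). Of 12 alveolar type 1 and type 2 markers tested, 9 were called lower, 1 higher and 2 not, with a median of -0.57. Their brightest probe was that of Sftpc, and their summed intensity was 718300 and 717200 in the NT lungs, 583500 and 614900 in Ctrl-F, 595300 and 573100 in Cap-F, and 612000 and 614300 in ODNcap-F. Their part in the fall of Extl3 was not tested.

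The wider IL-22 and IL-10 pathway was covered by a list of 20 ligands, receptors and signaling genes, of which 14 were tested. In the 3 OVA groups against NT 5 were called higher, 3 lower and 6 not, with a median of 0.15. Of all probes, 28.0% were called higher and 37.8% lower. Il6, one of the 5 called higher, entered the test only through the OVA lungs. Socs1 and Socs3, feedback inhibitors of cytokine receptors, rose by 2.53 and 0.82 (adjusted p = 5.41e-06 and 0.000391). Il20rb, the partner chain for IL-24, rose by 1.78 (adjusted p = 0.000162), while its other partner Il20ra was not well above background on any array. Stat3 differed by -0.10 (interval -0.27 to 0.07, adjusted p = 0.247). Il6, the gene of the inflammatory cytokine IL-6, stood at 3.26 and 3.90 in NT, where 1 of 2 lungs measured it, and between 6.66 and 7.66 in the OVA lungs (adjusted p = 3.82e-05), and Il6ra, the IL-6 binding chain, fell by 1.04 (adjusted p = 3.36e-05).

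Listed genes known to answer these cytokines were mostly called higher, where 28.0% of all probes were called higher and 37.8% lower. The lists were chosen with earlier results of these data known, so these counts are no test of a response to IL-22 or IL-10. Whether either cytokine caused the changes was not tested. Of 19 listed IL-22 and STAT3 responsive epithelial genes 15 were tested. Of these, 12 were called higher, 2 lower and 1 not, with a median of 1.64. Clca1 and Saa2, both among the 12, entered the test only through the OVA lungs. Saa3 and Saa1, acute phase proteins, rose by 5.69 and 3.94 (adjusted p = 2.59e-06 and 8.05e-06), and Bcl3, a nuclear IκB protein, by 1.28 (adjusted p = 3.8e-05). Clca1, a goblet cell product, rose from 2.65 and 5.38 in NT, where 1 of 2 lungs measured it, to between 16.68 and 17.23 (adjusted p = 3.04e-05). The calprotectin genes S100a8 and S100a9, which neutrophils also express, fell by 0.80 and 0.91 (adjusted p = 0.0421 and 0.0191). Of 10 IL-10 responsive myeloid genes 9 were called higher, 0 lower and 1 not, with a median of 1.05. Il1rn, the IL-1 receptor antagonist, rose by 3.67, Tnip3 by 4.35, the heme oxygenase Hmox1 by 2.11 and Nfil3 by 1.89 (adjusted p = 3.23e-06, 6.75e-06, 8.4e-06 and 1.6e-05). Socs3 and Bcl3 stand in both lists.

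Other antimicrobial proteins of the airway, set beside Reg3g, moved in both directions. Of 13 listed genes 12 were tested, and 5 were called higher, 5 lower and 2 not, beside 28.0% of all probes higher and 37.8% lower, with a median of -0.33. Slpi, a protease inhibitor of airway secretions, rose by 4.82 and Itln1, a secreted lectin, by 6.79 (adjusted p = 1.63e-06 and 5.61e-05). The lysozymes Lyz1 and Lyz2 fell by 0.74 and 1.27 (adjusted p = 0.00117 and 0.000244), and Wfdc2 fell by 0.60 (adjusted p = 0.00758).

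The summed intensities of lymphocyte markers and of macrophage markers rose along with Il10 and Il10ra, while single markers moved both ways. Of 12 T, B and innate lymphocyte markers 8 were called higher, 2 lower and 2 not, beside 28.0% and 37.8% of all probes called higher and lower, with a median of 0.57, and among them the B cell gene Ms4a1, with the brightest probe of the list, rose by 2.22 and Foxp3, the factor of regulatory T cells, by 1.16 (adjusted p = 7.78e-05 and 0.000346), while the natural killer cell genes Ncr1 and Klrb1c fell by 1.14 and 1.06 (adjusted p = 0.000492 and 0.000795). Their summed intensity was 14600 and 12810 in the NT lungs, 33190 and 29140 in Ctrl-F, 36720 and 33740 in Cap-F, and 30150 and 26930 in ODNcap-F. Of 10 macrophage and monocyte markers 5 were called higher, 4 lower and 1 not, with a median of 0.63. The macrophage genes Mrc1 and Adgre1 rose by 2.01 and 1.78, and Marco fell by 3.96 (adjusted p = 6.18e-06, 9.13e-06 and 0.000126). Itgax rose by 3.22, while Ly6c2, with the brightest probe of the list, fell by 0.39 (adjusted p = 1.19e-05 and 0.0181). The sum was 116500 and 115300 in NT and between 135900 and 148200 in the 6 OVA lungs. Of 10 granulocyte markers 9 had a probe and were tested, Ly6g having none, and 5 were called higher, 2 lower and 2 not, with a median of 0.73. The eosinophil gene Epx, which entered the test only through the OVA lungs, was at least 24.3-fold higher (adjusted p = 0.000114, from NT values in the background), the probe of S100a9 was the brightest, and the sum, carried by S100a9 and S100a8, was 52390 and 41240 in NT and between 19030 and 34930 in the OVA lungs. In the list of airway epithelial markers 2 were called higher, 4 lower and 6 not, with a median of -0.22. How far a change in the cells of the lung enters the differences of Il10 and Il10ra was not tested.

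**Figure D4:**
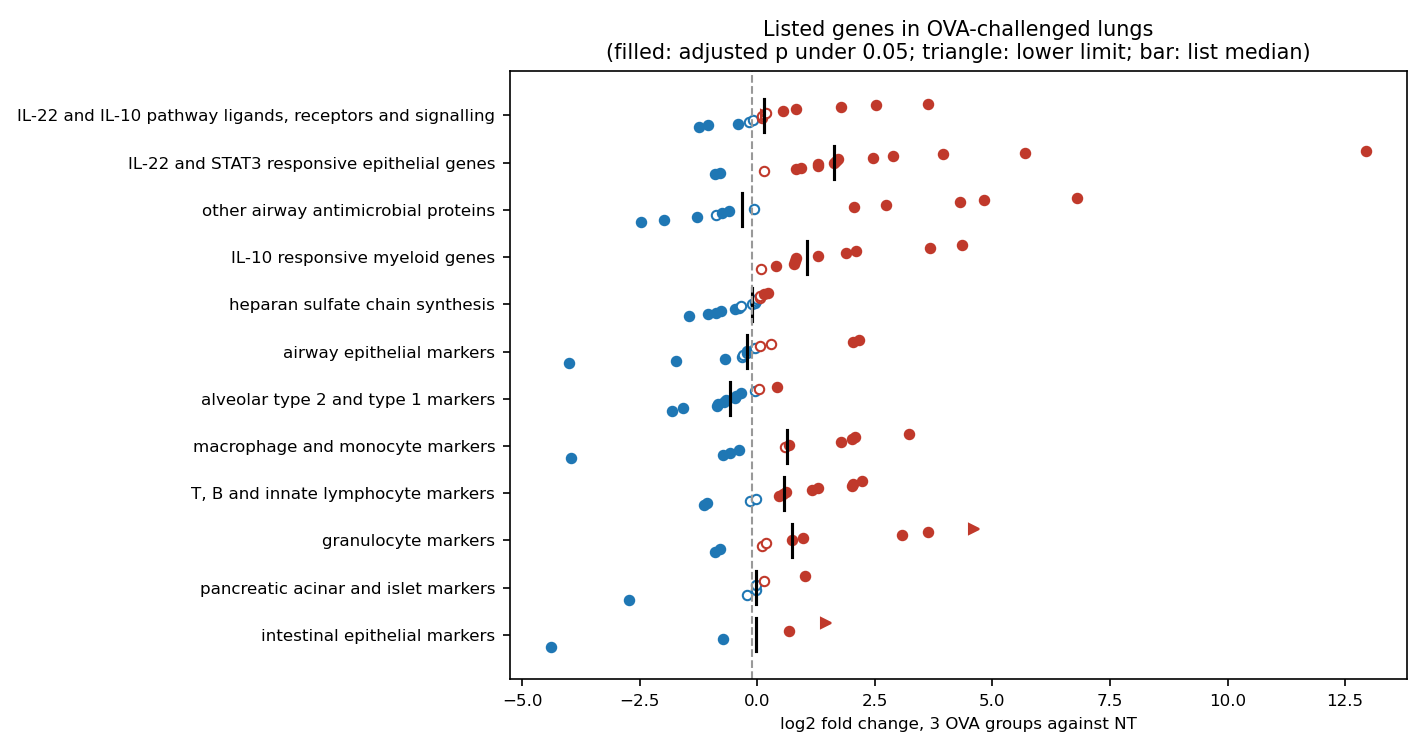
Log2 fold change in the 3 OVA groups against NT (horizontal axis) of every tested gene of 12 lists (vertical axis), with filled symbols called at an adjusted p under 0.05 and triangles for bounds. Black bars mark list medians and the dashed line the median of all probes, -0.11. The IL-22 and STAT3 responsive genes have the highest list median, 1.64, and the alveolar markers the lowest, -0.57.

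The comparison of feeds among OVA lungs asks whether the particles, with or without the oligodeoxynucleotide, shifted any of these genes. Il22ra2 is among the 8 tested genes but was not well above background in any OVA lung, so its lack of a call says nothing. None of the 8 was called by limma: 0 in ODNcap-F against Ctrl-F (0% of all probes), 0 in ODNcap-F against Cap-F (0.00269%) and 0 in Cap-F against Ctrl-F (0.00269%). The single probe called in the last 2 comparisons, for the transcript AK048705, was named after its values were seen and was measured in the Cap-F lungs alone, at 4.59 and 4.54. At an unadjusted p under 0.05 the counts were 0, 1 (Il10) and 1 (Il24), where 6.73%, 13.0% and 16.2% of all probes passed. The local-pooled-error test called 1 gene, Reg3g, in each of the 3, where it called 0.725%, 0.727% and 1.29% of all probes. Of the genes of all 12 lists, 0 were called between feeds by limma.

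For Reg3g the interval of the difference stayed wide. ODNcap-F against Ctrl-F gave 1.96 (interval -1.78 to 5.70, adjusted p = 0.839), with both ODNcap-F lungs above both Ctrl-F lungs. ODNcap-F against Cap-F gave 2.58 (interval -1.15 to 6.32, adjusted p = 0.521), and there the second Cap-F lung lay above the first ODNcap-F lung. Cap-F against Ctrl-F gave -0.63 (interval -4.36 to 3.11, adjusted p = 0.87), with 1 Cap-F lung on each side of the Ctrl-F lungs. By the local-pooled-error test all 3 Reg3g differences passed, those of ODNcap-F upward (adjusted p = 2.38e-25 against Ctrl-F and 7.65e-47 against Cap-F) and that of Cap-F from Ctrl-F downward (0.0225). That test borrows its spread from probes of like intensity. Its p therefore do not measure the gaps between mice for Reg3g, 14.6-fold in Cap-F and 4.02-fold in ODNcap-F. Without Cap-F mouse 1 the Reg3g difference of Cap-F from Ctrl-F was 1.31, and without Cap-F mouse 2 it was -2.56.

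Il10 in ODNcap-F was 0.39 above Cap-F (interval 0.10 to 0.68, adjusted p = 0.302), with no overlap of the pairs, and 0.14 above Ctrl-F (interval -0.15 to 0.43, adjusted p = 0.852). Il24 in Cap-F stood at -0.73 from Ctrl-F (interval -1.33 to -0.13, adjusted p = 0.246), and both Cap-F lungs were below both Ctrl-F lungs. Between ODNcap-F and Cap-F the Il24 difference was 0.47 (interval -0.13 to 1.07, adjusted p = 0.477). Neither gene passed the adjustment over all probes.

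For the receptor chains and Extl3 every interval between feeds included 0. For Il22ra1 Cap-F lay 0.24 above Ctrl-F (interval -0.02 to 0.51, adjusted p = 0.34), and ODNcap-F lay 0.09 above Ctrl-F (interval -0.18 to 0.36, adjusted p = 0.909) and differed from Cap-F by -0.15 (interval -0.42 to 0.11, adjusted p = 0.59). In the order ODNcap-F against Ctrl-F, ODNcap-F against Cap-F and Cap-F against Ctrl-F, the Il10ra differences were -0.02 (interval -0.45 to 0.41), -0.07 (interval -0.50 to 0.36) and 0.06 (interval -0.38 to 0.49). Those of Il10rb were -0.01 (interval -0.18 to 0.15), -0.10 (interval -0.26 to 0.06) and 0.09 (interval -0.08 to 0.25), and both Cap-F lungs lay above the other 4 OVA lungs. Those of Extl3 were 0.05 (interval -0.19 to 0.29), -0.06 (interval -0.30 to 0.17) and 0.11 (interval -0.12 to 0.35). Il22ra2 was not well above background in any OVA lung, so no difference between feeds is given for it, nor for Reg3b and Il19.

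**Figure D5:**
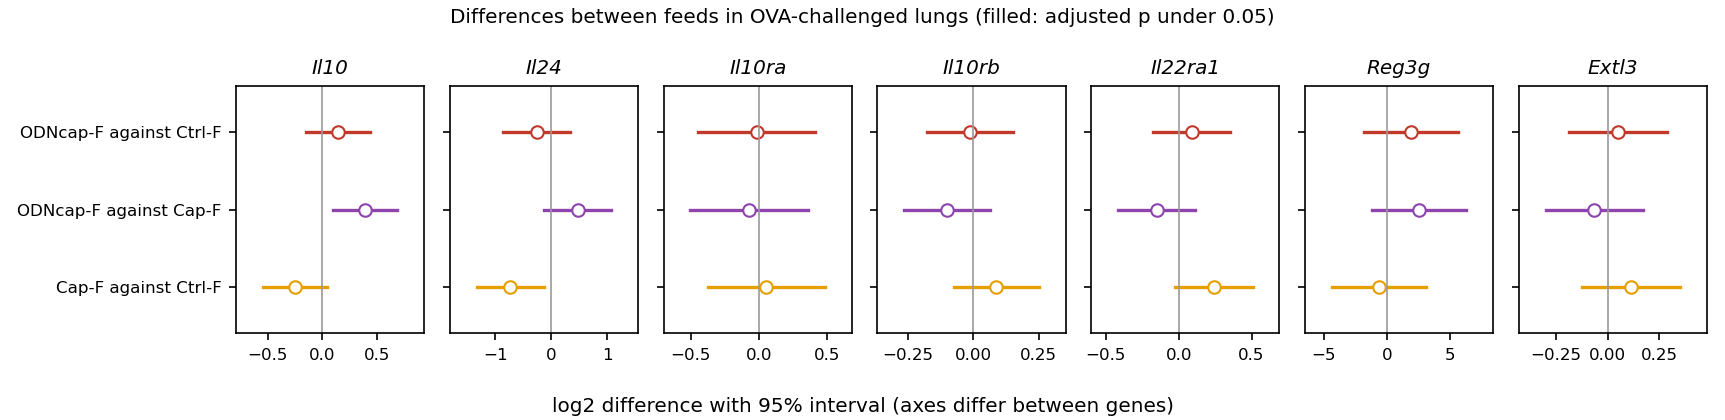
Log2 difference (horizontal axes, which differ between genes) between the 3 OVA groups, with 95% intervals, for the 7 genes measured in them. Open circles were not called at an adjusted p under 0.05. The intervals of Il10 for ODNcap-F against Cap-F (0.10 to 0.68) and of Il24 for Cap-F against Ctrl-F (-1.33 to -0.13) lie to 1 side of 0.

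The number of arrays limits the precision. An exact permutation of the group labels cannot give a two-sided p under 0.333 for 2 mice against 2, or under 0.0714 for 6 against 2, so the calls rest on the spread that limma pools over groups and probes.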

How the data were processed

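The authors deposited, for each of the 8 arrays, the background-subtracted intensity of every spot from Agilent Feature Extraction 11.0 (per the submitters' processing notes), and a table of quantile normalized log2 values for 32312 probes. Control and flagged spots were left out, intensities were taken to log2, averaged over the spots of each of 56605 probes and quantile normalized. Between 61.3% and 65.0% of probes per array were well above background, and 0 spots were saturated. Gene names came from RefSeq by accession, with 32994 probes (58.3%) matched. A single model of the 4 groups was fitted to the 8 arrays (R 4.3.3 with limma 3.58.1 and data.table version 1.17.8) with no covariate, 4 residual and 1.96 prior degrees of freedom and a prior SD of 0.103, with Benjamini-Hochberg adjustment over 37116 probes and 7 comparisons made. The brightest probe stands for a gene. Named beside the 10 genes are some of the called genes of each list with the smallest adjusted p, up to 4 each way. This p is that of the 3 OVA groups against NT. Il22, Il20ra, Il20rb, Stat3, Socs3, Ext1, Ext2 and the listed Reg genes are named whatever their result. Also named are the 5 genes most like Reg3g and Il22ra1, the gene with the brightest probe of some lists and the genes of 2 lists that no array measured. The 10 genes and the lists were chosen with earlier results of these data known. The study used the local-pooled-error test, which was rebuilt here (100 bins, spline of 10 degrees of freedom) as an alternative. Other alternatives were scaling to the 75th percentile, normexp with an offset of 50, the replicate block, an intensity trend, the values deposited by the authors, all probes unfiltered, probes measured above background in every mouse, fits of the compared groups only, the average over the probes of a gene, 1 mouse omitted at a time, a fold change over 2 and an unadjusted p. Il22ra2 has no alternative values between OVA groups, since it was not well above background in any of them. The code was tested on simulated data. Promoters were taken from RefSeq (GRCm38.p6). Histology, blood, lavage, qPCR and fecal sequencing were not analysed here.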

Additional observations from a re-analysis of the deposited data

How the results depend on the processing

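Of 390 values against NT under the alternatives, for the 5 genes measured on every array, 329 kept their direction and their side of the threshold, 45 were no longer called, 16 were newly called and 0 reversed. The 210 values of Il10, Il24 and Il22ra2 all kept both. These 3 genes entered only through the groups where they were high, with the other side in the background, so this is no measure of stability. Of 1230 values of listed genes, 1155 kept both, 74 were no longer called and 1 reversed, and of 408 values between OVA groups 393 kept both, 5 were newly called and 10 reversed, with none of the reversed ones called. The deposited log2 table and a restriction to probes measured above background in every mouse hold 5 of the 10 genes (without Reg3b, Il22ra2, Il10, Il19 and Il24), and the genes called in the 3 OVA groups, Ctrl-F, Cap-F and ODNcap-F against NT were then 5, 2, 4 and 3 (68%, 63.7%, 58.6% and 61.7% of all probes), and 5, 2, 4 and 4 (68.6%, 64.3%, 59.3% and 62.4%). The counts against NT that follow cover all 8 tested genes, and each includes Il10, Il24 and Il22ra2. A fold change over 2 left 4, 3, 4 and 4 (20.6%, 22.1%, 19.1% and 20.0% of all probes). Il24 in Cap-F was among them by its fitted value, though its bound is 1.76-fold. The local-pooled-error test called 1 in each comparison of feeds (0.725%, 0.727% and 1.29% of all probes). An unadjusted p called 1 in ODNcap-F against Cap-F (13.0%) and 1 in Cap-F against Ctrl-F (16.2%). Leaving out each array in turn gave 5 to 8 called in the 3 OVA groups against NT (51.4% to 64.7% of all probes), 5 without NT mouse 1. With the replicate block 8, 6, 8 and 6 were called against NT (65.1%, 60.2%, 55% and 58% of all probes) and 0 between feeds. Samples with the same number correlated between -0.012 and 0.161 in their deviations, and the highest value was that of Cap-F with ODNcap-F. The labels give these samples a number and no pairing, and whether they shared a batch was not tested.

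Reversed values were Stat3 in the 3 OVA groups (0.048) and Il10rb in Cap-F against Ctrl-F (-0.006) with 75th percentile scaling, Il22ra1 in ODNcap-F against Ctrl-F (-0.029) with normexp, and Il10ra in Cap-F against Ctrl-F (-0.013) with the mean of its probes. With arrays left out in turn, Cap-F against Ctrl-F ranged from -2.56 to 1.31 for Reg3g and -0.10 to 0.21 for Il10ra, ODNcap-F against Ctrl-F from -0.23 to 0.19 for Il10ra and -0.031 to 0.005 for Il10rb, and ODNcap-F against Cap-F from -0.28 to 0.14 for Il10ra. Where a group kept 1 array, its spread was taken from the rest. The cause was not tested.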
